A study of Mus musculus with 135 samples.

Results

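The 10 genes described here are Nfe2l2, the gene of the transcription factor NRF2, and 9 antioxidant genes known as its targets (Nqo1, Gclc, Gclm, Gsr, Txnrd1, Srxn1, Slc7a11, Prdx1 and Gpx4). They were chosen by name, not by any measured value, though earlier results of these data were known when they were chosen. All 10 were found among the 55416 genes of the cortex table and of the hippocampus table. All 10 passed the filter on low counts in every comparison. Their levels are given in CPM, a gene's reads scaled so that the reads on annotated genes have the same total in each library.

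The study sequenced bulk RNA of 2 brain regions, cerebral cortex and hippocampus, in male Townes mice, whose own globin genes were replaced by human ones. AA mice carry the normal adult allele and SS mice the sickle allele, so the AA controls share the humanized globin background. Repeated social defeat (RSD), in which an aggressive male is put into the cage of resident mice, was given for 2 hours a day over 6 days to mice that were 6 months old in the first cohort. Minocycline, an antibiotic of the tetracycline class, was given in drinking water at 90 mg/kg. In the cortex, the AA libraries compared came from 12 mice with neither exposure, 2 with RSD and 18 with RSD and minocycline. The SS libraries came from 8 mice with neither, 6 with RSD, 4 with minocycline and 14 with both. The hippocampus had 11 AA and 7 SS mice with neither and the same numbers otherwise. A lone AA mouse given minocycline (1 library per tissue) was kept in the fits without being compared. AA and SS mice given neither RSD nor minocycline are called control mice.

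NRF2 is held in the cytoplasm by KEAP1, which marks it for degradation. Oxidants and electrophiles modify KEAP1, and NRF2 then reaches the nucleus, pairs with a small MAF protein and binds antioxidant response elements near its target genes. The targets supply glutathione (Slc7a11 imports cystine, Gclc and Gclm encode the catalytic and modifier subunits of glutamate-cysteine ligase, and Gsr regenerates reduced glutathione), run the thioredoxin and peroxiredoxin cycle (Txnrd1, Prdx1 and Srxn1) or detoxify quinones and lipid peroxides (Nqo1 and Gpx4). In brain the pathway is known mainly from astrocytes and other glia. Activity of NRF2 is set largely at the protein level, which these data did not measure.

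Of the 10 genes, 8 had a promoter in the RefSeq table of the mouse genome build GRCm38.p6 (250 bases before the start site were searched). The core of the antioxidant response element, searched as TGACNNNGC on both strands, was found in 4 of these 8 genes. It was found in 11.5% of all 27025 genes with a promoter and in 10.2% of all 32851 promoters, and in 10 of 44 other genes of the pathway. The 4 matches are shown because they are the kind of site by which NRF2 targets are recognised. They are given 5′ to 3′ on the strand of the gene with the matching letters in capitals, and in Gclm, Txnrd1 and Prdx1 the match is on the opposite strand and so reads as the reverse complement.
Nfe2l2, chr2:75704870-75704913, minus strand: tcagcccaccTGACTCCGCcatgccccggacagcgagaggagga
Gclm, chr3:122245398-122245456, plus strand: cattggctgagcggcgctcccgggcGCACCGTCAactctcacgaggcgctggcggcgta
Txnrd1, chr10:82859089-82859147, plus strand: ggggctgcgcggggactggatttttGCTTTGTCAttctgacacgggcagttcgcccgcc
Prdx1, chr4:116685441-116685499, plus strand: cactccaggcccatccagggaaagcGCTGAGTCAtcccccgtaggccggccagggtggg
The matches began 240, 134, 92 and 133 bases before the start site, on the second of 3 listed promoters in the case of Txnrd1. Nqo1, Srxn1, Slc7a11 and Gpx4 had no match in these windows.

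The counts cover whole genes, and the positions that follow were taken from GENCODE on GRCm39, the build to which the reads were aligned. Nfe2l2 lies at chr2:75504739-75534985 and Srxn1 at chr2:151947436-151957687. Gclm lies at chr3:122039126-122065061 and Slc7a11 at chr3:49846975-50398070. Nqo1 lies at chr8:108113835-108129934 and Gsr at chr8:34142551-34188192. Txnrd1 lies at chr10:82669785-82733546 and Gpx4 at chr10:79883000-79892273. Gclc lies at chr9:77661797-77701770 and Prdx1 at chr4:116532123-116558398. Genes of the opposite strand overlap 13.8% of the exonic bases of Prdx1, 13.2% of Gpx4, 12.6% of Gclm, 5.09% of Nfe2l2 and 2.58% of Srxn1. The strand setting of the counting is not given in the sources used here, so reads of these overlaps cannot be assigned. Genes of the same strand overlap 6.18% of the exonic bases of Gclm and 2.08% of Gsr, whatever that setting. Prdx1 and Gpx4 also have named pseudogenes, and the counting left out reads with more than 1 mapping place.

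Libraries held 12869149 to 107713193 reads on genes. Summed marker genes of the hippocampus followed the tissue labels except in mouse 9674 (AA + RSD), whose library labelled cortex had a hippocampus marker sum of 330 CPM against 18.5 to 40.4 in the 65 cortex libraries used and whose library labelled hippocampus had 27.6 CPM against 225 to 469. In each tissue a library of SS + minocycline and one of AA + RSD + minocycline held identical counts. These libraries were left out, 6 in all. The hippocampus library of mouse 9810 (SS + RSD + minocycline) was kept, although its summed cortex markers (482 CPM) lay within the range of the cortex libraries (119 to 510.4 CPM) and above the 46.5 to 238 CPM of the other hippocampus libraries used, and its hippocampus markers (225 CPM) were the lowest. Markers of red blood cell precursors went against the labelled genotype in mice 5844, 5853 and 7078, which were kept, and leaving them out together with mouse 9631, whose globin genes had been named in earlier work on these data, left the number of called genes among the 10 within 1.5 times in every comparison. The mouse numbers in the labels fall into 6 separate ranges, which were joined in pairs to 3 number series, a grouping that the labels do not state. Series A holds the numbers 5349 to 5400 and 9615 to 9674, series B 5645 to 5900 and 9810 to 9910, and series C 7037 to 7121 and 10633 to 10639. The sample codes of the labels run from 55 to 69 in series A, from 9 to 54 in series B and from 1 to 8 in series C. All mice given RSD alone are in series A, series B and C hold every mouse given RSD with minocycline, and the control mice are spread over series A and B.

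The order of the 10 genes by level, per kilobase of exon, spanned a wide range and was similar in the tissues. In the cortex of 20 control mice, Gpx4 came first at 123 ± 28.2 CPM per kb (SD), and Prdx1 followed at 29.3 ± 6.18. Srxn1 (10.8 ± 1.09), Gclc (9.12 ± 0.627), Txnrd1 (6.66 ± 0.283) and Gclm (5.50 ± 0.410) formed the middle. Gsr (3.35 ± 0.241), Nfe2l2 (2.57 ± 0.343), Slc7a11 (2.34 ± 0.514) and Nqo1 (1.25 ± 0.243) were lowest. The ranges over mice overlapped between neighbours in this order for Srxn1 and Gclc, Gsr and Nfe2l2, Nfe2l2 and Slc7a11, and Slc7a11 and Nqo1, and did not overlap between the other neighbours. In the hippocampus of 18 control mice, Gclc (9.34 ± 0.497) stood above Srxn1 (8.33 ± 1.02), and the other 8 genes kept their places. The thinnest coverage was that of Nqo1, with 30 to 327 reads in a cortex library and 63 to 543 in a hippocampus library, and each of the other 9 genes had at least 189 reads in every library.

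**Figure D1:**
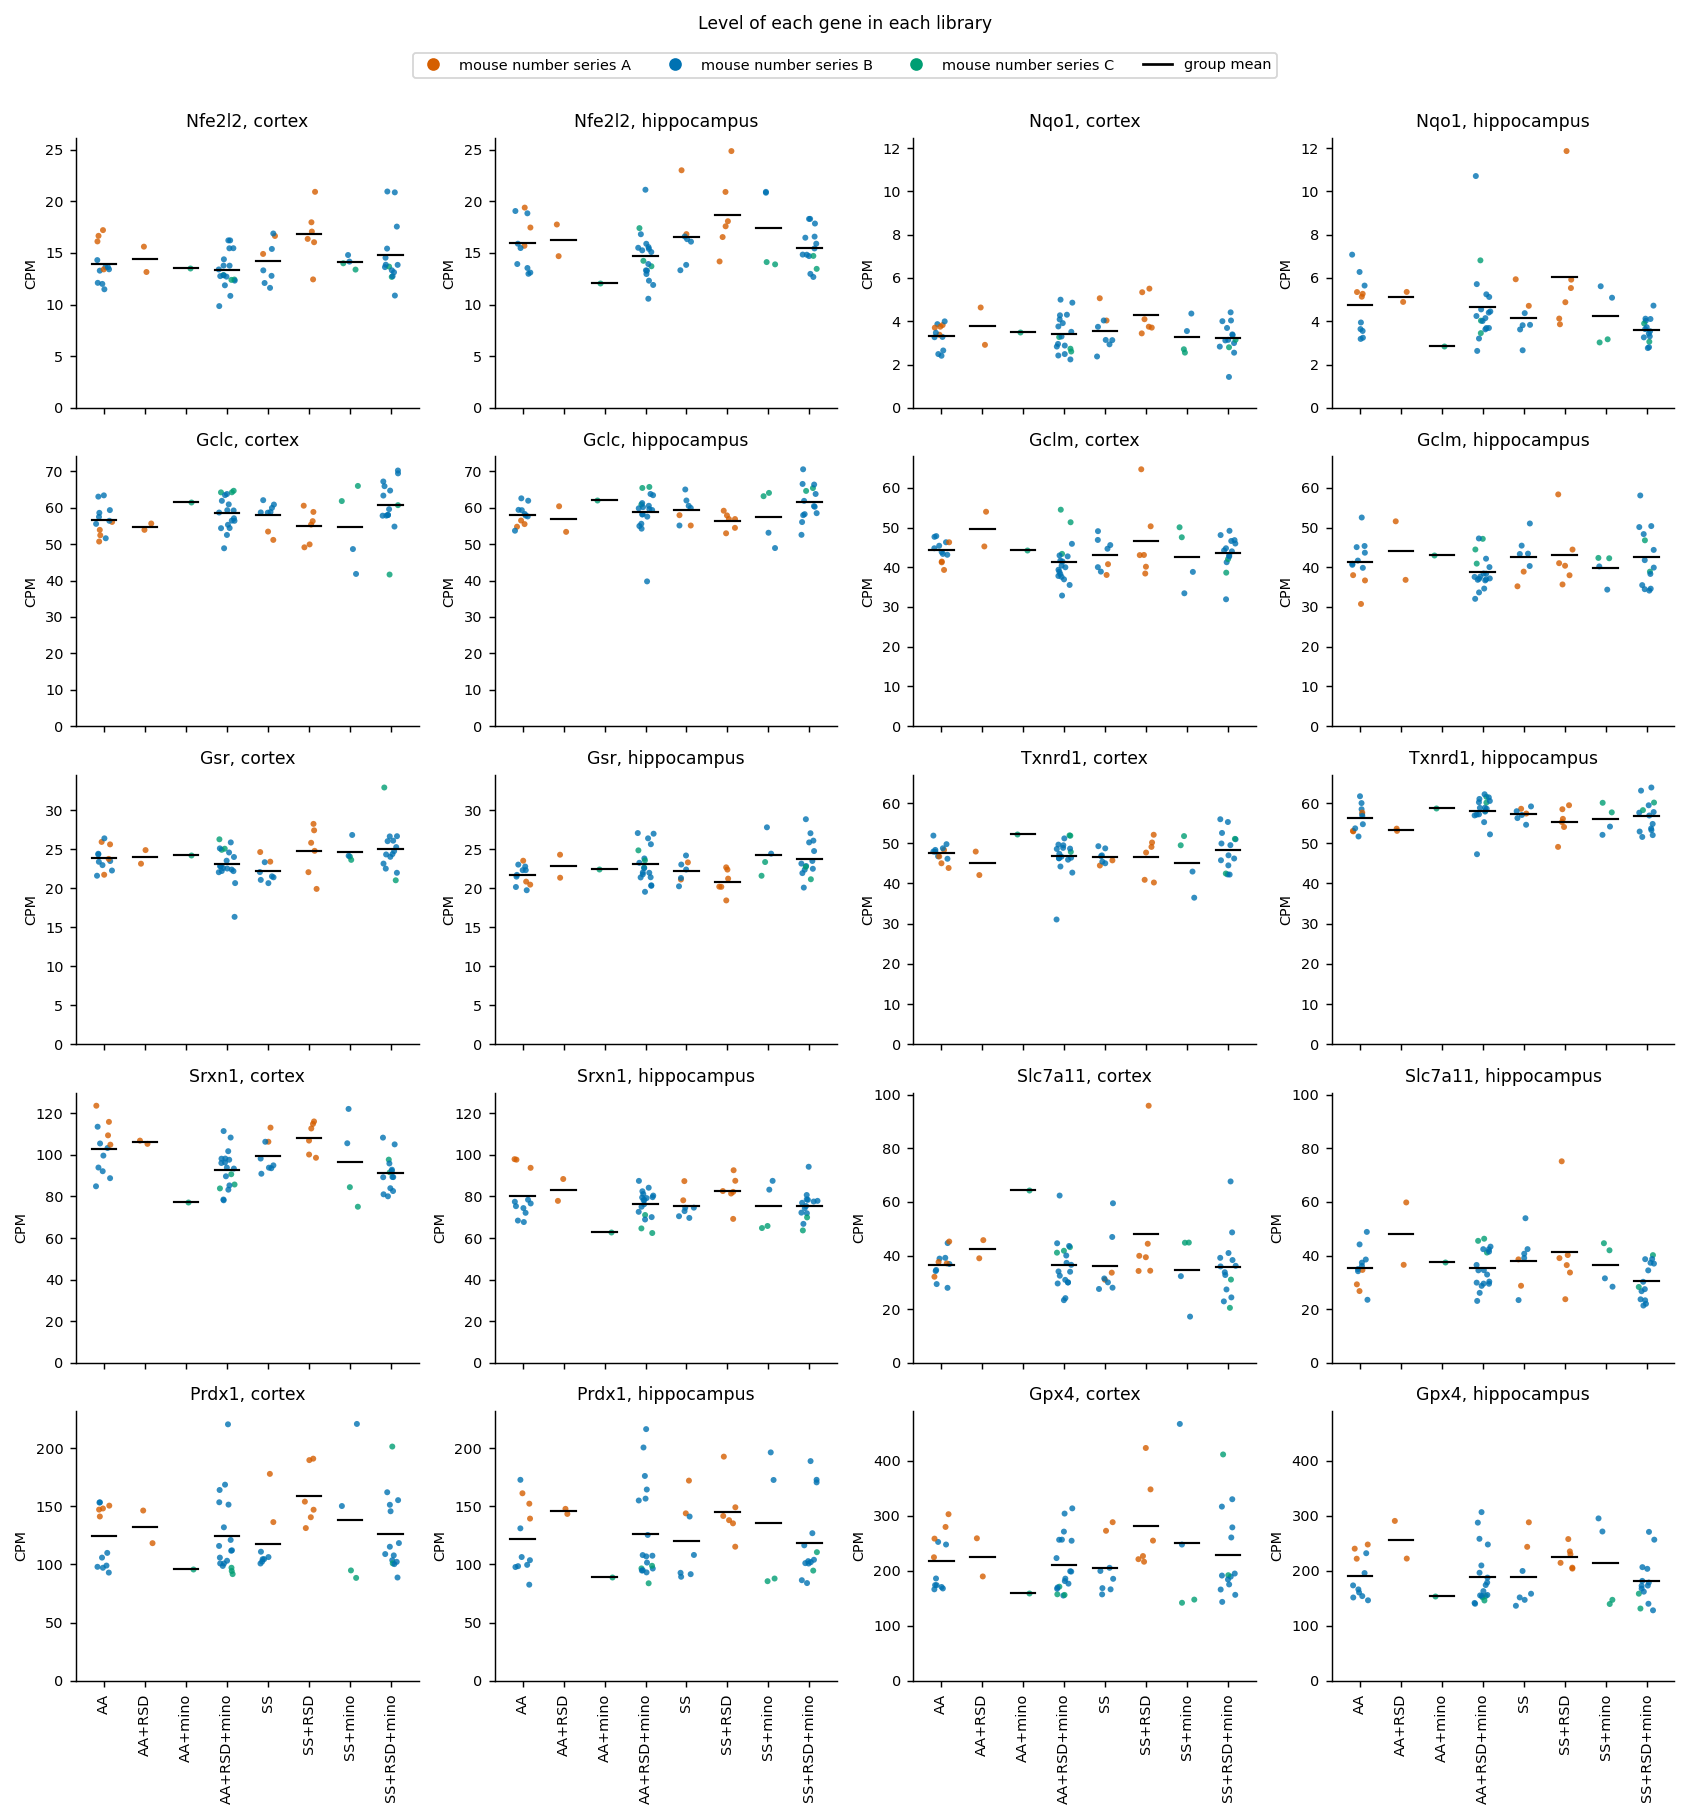
CPM (y axis, from 0) of each of the 10 genes in each library of the cortex and the hippocampus, by group (x axis, mino for minocycline), with 1 point per mouse, coloured by the number series of the mouse label, and a line at the group mean. Over all cortex libraries the SD was 8.71% of the mean for Txnrd1, 9.85% for Gclc and 9.81% for Gsr, but in SS + minocycline cortex it reached 20.7% for Gclc and 15.3% for Txnrd1, and Gpx4, Prdx1, Slc7a11 and Nqo1 spread more widely in most groups.

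The genes differed in how steady they were between mice of the same group. The SD within groups on the log2 CPM scale, over 65 cortex and 63 hippocampus libraries, was 0.14 in cortex and 0.09 in hippocampus for Txnrd1, the reductase of thioredoxin. It was 0.15 and 0.12 for Gclc, 0.14 and 0.13 for Gsr, and 0.15 in both tissues for Srxn1. Nfe2l2 itself was intermediate (0.21 and 0.23). Gpx4, the peroxidase of membrane lipids, had 0.41 and 0.34, Slc7a11 0.40 and 0.35, Prdx1 0.34 and 0.39, and Nqo1 0.34 and 0.40. Over all cortex libraries Gpx4 ran from 142 to 467 CPM, a 3.29-fold range, and Slc7a11 from 17.2 to 96.0 CPM, a 5.59-fold range. Txnrd1 ran from 31.04 to 55.97 CPM, a 1.80-fold range.

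The tissues of the same mice were compared first. Cortex and hippocampus of the same 18 control mice (11 AA and 7 SS) were compared with the mouse as a block, and 7 of the 10 genes were called, against 61.4% of the 17880 genes tested, so the share among the 10 was near that of all genes. Nqo1, Txnrd1 and Nfe2l2 were higher in the hippocampus, and Srxn1, Gpx4, Gclm and Gsr were lower.

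Srxn1, which reactivates overoxidised peroxiredoxins, had 84.9, 102 and 124 CPM (lowest, median and highest) in cortex and 67.7, 75.0 and 98.0 CPM in hippocampus. It was lower in the hippocampus of 18 of 18 mice, with a log2 fold change of -0.39 ± 0.03 (SE, adjusted p = 8.5e-11), which is a fold of 0.762. Txnrd1 had 43.8, 46.8 and 51.9 CPM in cortex and 51.7, 57.1 and 61.7 CPM in hippocampus. It was higher in 18 of 18 mice, by 0.25 ± 0.02 on the log2 scale (adjusted p = 3.6e-09), which is 1.19-fold. Thus the reductase of thioredoxin and the reductase of peroxiredoxins differed in opposite directions between the tissues.

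Nqo1, the quinone reductase often used as an NRF2 readout, had 2.38, 3.42 and 5.06 CPM in cortex and 2.66, 4.16 and 7.08 CPM in hippocampus. It was higher in the hippocampus of 12 of 18 mice (0.36 ± 0.09, adjusted p = 0.0014), so the tissues overlapped and 6 mice went the other way. Nfe2l2 had 11.5, 13.5 and 16.9 CPM in cortex and 12.98, 15.99 and 22.999 CPM in hippocampus, and was higher in 14 of 18 mice (0.19 ± 0.05, adjusted p = 0.0024). The fold was 1.28 for Nqo1 and 1.14 for Nfe2l2.

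Gpx4 had 157, 193 and 288 CPM in cortex and 136, 169.6 and 288 CPM in hippocampus, and was lower in 15 of 18 mice (-0.16 ± 0.04, adjusted p = 0.0018). Gclm was lower in 13 of 18 mice (-0.10 ± 0.04, adjusted p = 0.020) and Gsr in 14 of 18 (-0.09 ± 0.03, adjusted p = 0.017). The other 3 genes were not called. Their 95% intervals on the log2 scale were -0.03 to 0.07 for Gclc, -0.10 to 0.05 for Prdx1 and -0.22 to 0.14 for Slc7a11, and that of Gclc was the narrowest of the 10.

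**Figure D2:**
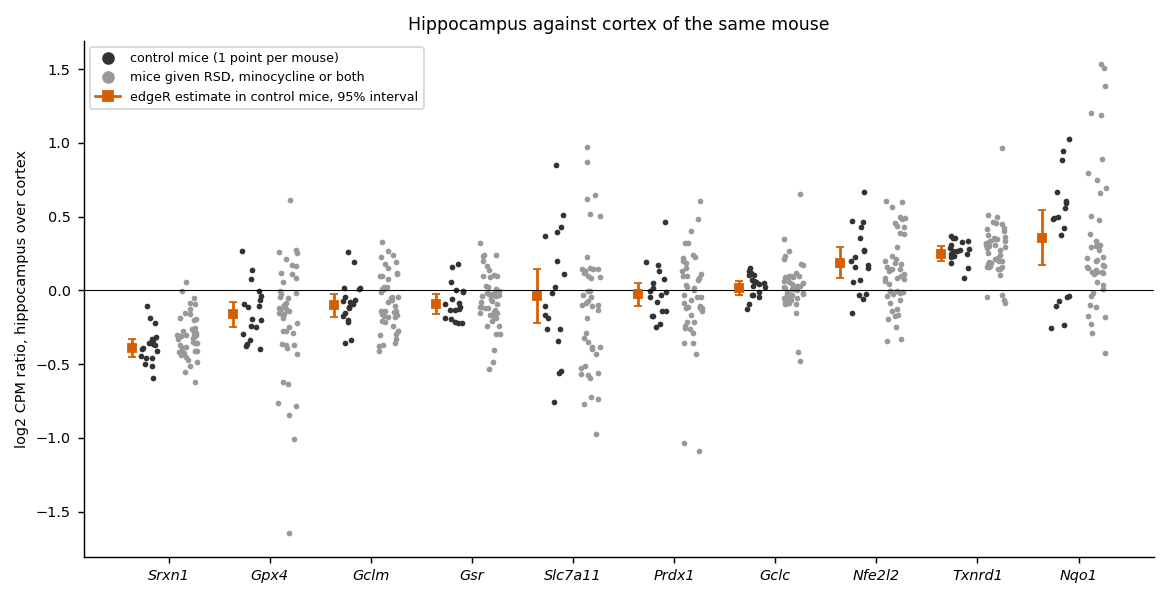
log2 ratio of CPM in the hippocampus over the cortex of the same mouse (y axis) for the 10 genes (x axis), with control mice as dark points, mice given RSD, minocycline or both as grey points, and the edgeR estimate in control mice with its 95% interval as squares. All 18 control mice lie below 0 for Srxn1 and above 0 for Txnrd1.

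The tissue differences were then read in mice not used for that test. In 45 mice given RSD, minocycline or both, 6 of the 10 genes were called, against 61.9% of all genes, so the share was near that of all genes. These 6 were among the 7 called in control mice and kept their direction, and Gsr was not called (-0.06 ± 0.03, adjusted p = 0.068). Without mouse 9810 Gsr was called too (-0.07 ± 0.03, adjusted p = 0.043), with 61.7% of all genes. Srxn1 was lower in the hippocampus of 44 of 45 of these mice (-0.31 ± 0.02) and Txnrd1 was higher in 41 of 45 (0.27 ± 0.03). Nqo1 was higher in 36 of 45 (0.31 ± 0.07), Nfe2l2 in 28 of 45 (0.12 ± 0.03), and Gpx4 was lower in 34 of 45 (-0.20 ± 0.06). With the 7 SS control mice alone, only Srxn1 (-0.43 ± 0.05) and Txnrd1 (0.29 ± 0.05) were called, against 41.3% of all genes, and Nqo1 had 0.16 ± 0.14 there against 0.48 ± 0.10 in the 11 AA mice. The difference between the genotypes was not tested. With the 5 control mice of series A alone 4 genes were called (Srxn1, Txnrd1, Gclm and Gsr, against 40.9% of all genes), and with the 13 of series B alone 5 (Srxn1, Txnrd1, Gpx4, Nqo1 and Nfe2l2, against 56.4%). The tissues also differed in cell type markers. Markers of neurons were lower in the hippocampus for 4 of 5 genes, those of microglia were higher for 4 of 5, those of choroid plexus for 5 of 5 and those of meningeal fibroblasts for 4 of 5. Among all genes 32.8% were called higher and 28.6% lower in the hippocampus of control mice. Summed choroid plexus markers ran from 2.43 to 1166 CPM over the cortex libraries and from 6.49 to 9438 CPM over those of the hippocampus, while summed neuron markers ran from 4974 to 7266 and from 4107 to 5942 CPM. Their part in the differences of the 10 genes was not tested, and in bulk tissue fewer cells of a type and less RNA per cell cannot be told apart.

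The genotype comparisons ask whether sickle mice carry other levels of these genes than AA mice under the same exposure. None of the 10 genes was called by edgeR in any of them, in either tissue, nor by the Wald test of DESeq2. Among all genes 0.206% were called for SS against AA mice in cortex and 0.158% in hippocampus. In the cortex, Nfe2l2 had 11.5, 13.5 and 17.2 CPM (lowest, median and highest) in AA mice and 11.6, 14.1 and 16.9 CPM in SS mice. Nqo1 had 2.41, 3.42 and 3.997 CPM in AA mice and 2.38, 3.44 and 5.06 CPM in SS mice. No SS mouse lay outside the AA range for Nfe2l2, while for Nqo1 the highest AA value was exceeded in 3 of 8 SS mice, with 1 under the lowest. Fold changes were fitted on library sizes scaled by TMM, which can turn the sign of a difference near 0 against that of the CPM, as for Nfe2l2 here (-0.05). The 10 log2 fold changes of SS against AA ran from -0.18 (Gsr) to 0.01 (Nqo1) in the cortex, with a median of -0.12 against -0.05 over all genes, and from -0.22 (Nqo1) to 0.09 (Slc7a11) in the hippocampus, with a median of 0.01. Gsr in the cortex was the 1 gene with an unadjusted p under 0.05 (adjusted p = 0.68), with medians of 23.6 CPM in AA and 21.8 CPM in SS mice. The narrowest intervals were -0.17 to 0.08 for Gclc in cortex and -0.08 to 0.09 for Txnrd1 in hippocampus. Wider ones were those of Gpx4 in the cortex (-0.56 to 0.24) and Prdx1 in the hippocampus (-0.48 to 0.37).

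Mice exposed to RSD gave no call of the 10 genes between the genotypes either. Between SS + RSD and AA + RSD mice 0% of genes were called in the cortex (670 at an unadjusted p under 0.05, and 14 by DESeq2) and 0.0171% in the hippocampus. With 2 AA + RSD mice the intervals of the 10 genes reached from -0.49 to 1.054 in cortex and from -0.76 to 1.01 in hippocampus. With both RSD and minocycline, the largest groups (14 SS and 18 AA mice), 0.599% of genes were called in cortex and 2.73% in hippocampus. The 10 genes ran from -0.12 (Nqo1) to 0.11 (Nfe2l2) in cortex and from -0.38 (Nqo1) to 0.13 (Gclm) in hippocampus. Nqo1 in the hippocampus had 2.63, 4.20 and 10.7 CPM in AA + RSD + minocycline mice and 2.76, 3.59 and 4.72 CPM in SS + RSD + minocycline mice, so its range in SS mice lay within that in AA mice (adjusted p = 0.30, unadjusted p under 0.05). The interaction of genotype and RSD, which asks whether RSD changed the genotypes unequally, called 0 of the 10 genes, with 0 at an unadjusted p under 0.05. It called 0% of all genes in the cortex (424 at an unadjusted p under 0.05, and 2 by DESeq2) and 0.0128% in the hippocampus. Within number series A or B alone, the genotype comparisons again called 0 of the 10 genes, against 0% to 0.34% of all genes. A result of 0 among 10 genes was thus near the share of all genes.

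The comparison of SS + RSD with SS mice asks what social defeat changed in sickle mice. All 10 genes had estimates above 0 in both tissues, but none was called, against 2.57% of all genes in cortex and 3.11% in hippocampus. In the cortex 7 of the 10 had an unadjusted p under 0.05, and in the hippocampus 2 (Srxn1 and Nqo1), against 27.7% and 19.6% of all genes, so that in the hippocampus the share among the 10 was near that of all genes. DESeq2 called 0 in both tissues.

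Nfe2l2 in the cortex had 12.4, 16.7 and 20.9 CPM (lowest, median and highest) in 6 SS + RSD mice against 11.6, 14.1 and 16.9 CPM in 8 SS mice. Of the SS + RSD mice, 3 of 6 lay above every SS mouse. The log2 fold change was 0.36, with a 95% interval of 0.08 to 0.64 (adjusted p = 0.10). Slc7a11, the cystine importer, had 34.2, 39.6 and 96.0 CPM against 27.5, 31.2 and 59.5 CPM, and 1 SS + RSD mouse lay above every SS mouse (0.54, interval 0.03 to 1.0499, adjusted p = 0.16). That mouse, 9621, decided the value, which was 0.23 without it in the cortex and turned from 0.21 to -0.02 in the hippocampus. Gsr had 19.9, 25.3 and 28.3 CPM against 20.7, 21.8 and 24.7 CPM, with 4 of 6 SS + RSD mice above every SS mouse and 1 below (0.27, interval 0.08 to 0.46, adjusted p = 0.081).

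Gpx4 had 216, 241 and 423 CPM against 157, 192 and 288 CPM, and Prdx1 131, 151 and 191 CPM against 101, 105 and 178 CPM. These 2 genes had 0.56 (0.03 to 1.098) and 0.54 (0.12 to 0.95) on the log2 scale. Prdx1 was called only in a model of these 2 groups alone (0.50 ± 0.15, adjusted p = 0.028). Gclc stood at the other end, with 49.1, 55.9 and 60.6 CPM against 51.2, 58.8 and 62.1 CPM (0.05, interval -0.14 to 0.23).

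In the hippocampus Nqo1 had the highest estimate of the 10 genes. It had 3.86, 5.21 and 11.9 CPM in 6 SS + RSD mice against 2.66, 3.84 and 5.94 CPM in 7 SS mice, and 1 SS + RSD mouse, 9615, lay above every SS mouse (0.64, interval 0.17 to 1.105, adjusted p = 0.10). Nfe2l2 had 14.2, 17.8 and 24.9 CPM against 13.3, 16.3 and 22.999 CPM (0.27, interval -0.05 to 0.59), and its highest value again came from mouse 9615.

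The estimates differed when they were read within a number series. All 6 SS + RSD mice are of series A, to which 2 of the 8 SS mice in cortex and 2 of the 7 in hippocampus belong. Within series A the 10 genes ran from -0.07 (Nqo1) to 0.58 (Slc7a11) in the cortex, with 9 genes above 0 and a median of 0.06. In the hippocampus they ran from -0.21 (Gpx4) to 0.33 (Slc7a11), with 5 genes on either side of 0. The values of Slc7a11 include mouse 9621, and none of the 10 genes was called. With the series as a term in the model, Nfe2l2 had 0.12 in the cortex (-0.30 to 0.54) and -0.08 in the hippocampus (-0.46 to 0.31).

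In AA mice, RSD was read from 2 mice, since the libraries of the third did not match their tissue labels. None of the 10 genes was called against 12 AA mice in the cortex (0% of all genes, 1148 at an unadjusted p under 0.05) or 11 in the hippocampus (0.0419%), and DESeq2 called 0 of the 10 as well. Nfe2l2 had 15.6 and 13.2 CPM in the cortex of the 2 AA + RSD mice (9643 and 9646) and 17.8 and 14.7 CPM in the hippocampus, inside the range of AA mice. Slc7a11 had 38.95 and 45.7 CPM in cortex and 59.8 and 36.5 CPM in hippocampus, against 23.5 to 48.8 CPM in the hippocampus of AA mice. It was the 1 gene with an unadjusted p under 0.05 (0.44 in the hippocampus, adjusted p = 0.90). Intervals over the 10 genes reached from -0.51 to 0.71 in cortex and from -0.60 to 0.98 in hippocampus.

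The comparison of SS + RSD + minocycline with SS + RSD mice asks how defeated sickle mice with the drug differed from those without it. Whether the drug changed the response to defeat was not tested. The comparison called 1 of the 10 genes in each tissue, Srxn1 in cortex and Nqo1 in hippocampus, both lower with minocycline. Among all genes 8.85% were called in cortex and 5.96% in hippocampus, so 1 call among 10 genes was near the share of all genes.

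Srxn1 in the cortex had 80.1, 90.5 and 108 CPM (lowest, median and highest) in 14 SS + RSD + minocycline mice and 98.7, 109.8 and 116 CPM in 6 SS + RSD mice. Of the 14, 12 lay below every SS + RSD mouse. The log2 fold change was -0.36 ± 0.09 (SE, adjusted p = 0.015), a fold of 0.778. In the hippocampus Srxn1 had 63.7, 76.2 and 94.3 CPM against 69.2, 82.4 and 92.6 CPM and was not called (-0.18, interval -0.38 to 0.01, adjusted p = 0.22).

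Nqo1 in the hippocampus had 2.76, 3.59 and 4.72 CPM in SS + RSD + minocycline mice and 3.86, 5.21 and 11.9 CPM in SS + RSD mice, with 9 of 14 below every SS + RSD mouse. The log2 fold change was -0.80 ± 0.19 (adjusted p = 0.026), a fold of 0.573. In the cortex it had 1.43, 3.14 and 4.41 CPM against 3.44, 3.92 and 5.51 CPM, with 10 of 14 below every SS + RSD mouse (-0.53, interval -0.89 to -0.17, adjusted p = 0.055), and DESeq2 called it there (-0.50 ± 0.18, adjusted p = 0.035).

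The other 9 genes of each tissue were not called. Slc7a11 had -0.54 in the cortex (interval -0.996 to -0.09, adjusted p = 0.115) and -0.48 in the hippocampus (-0.83 to -0.13, adjusted p = 0.079), where 21.3, 29.2 and 40.1 CPM with minocycline stood against 23.7, 37.7 and 75.2 CPM. Without mouse 9621 (SS + RSD) these estimates were -0.23 and -0.25. Nfe2l2 had -0.30 (-0.55 to -0.05) and -0.32 (-0.60 to -0.05), with adjusted p = 0.12 in both tissues. Gclc and Txnrd1 lay closest to 0, with intervals of -0.15 to 0.19 and -0.21 to 0.07 in cortex and -0.05 to 0.18 and -0.14 to 0.08 in hippocampus. The median of the 10 genes was -0.33 in cortex and -0.25 in hippocampus, against -0.05 and -0.03 over all genes.

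Both calls changed with single mice and with the number series. All 6 SS + RSD mice are of series A and none of the 14 SS + RSD + minocycline mice is, so within a series the groups cannot be compared, and a term for the series can be set only through the control mice. With that term Srxn1 in the cortex had -0.02 ± 0.16 and Nqo1 in the hippocampus -0.08 ± 0.36, and 0 of the 10 genes and 0 of all genes were called. When the share of reads outside genes was the term instead, whose median was 4.18% in SS + RSD and 9.76% in SS + RSD + minocycline libraries of the cortex and 4.38% and 9.32% in the hippocampus, they had -0.22 (adjusted p = 0.29) and -0.37 (adjusted p = 0.65). The call of Srxn1 was lost without mouse 9615 (-0.31, adjusted p = 0.062) or 9616 (-0.32, adjusted p = 0.057). The call of Nqo1 was lost without mouse 9615 (-0.48, adjusted p = 0.11), 5354 (-0.91, adjusted p = 0.053), 5391 (-0.86, adjusted p = 0.052) or 9616 (-0.81, adjusted p = 0.058). Without mouse 9810, whose hippocampus library had cortex markers, Nqo1 was still called (-0.78, adjusted p = 0.037), while the number of all genes called in the hippocampus fell from 1234 to 724. Without mouse 5400, Slc7a11 in the hippocampus was called too (-0.59 ± 0.17, adjusted p = 0.042).

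Some markers of other cells were called in the same comparison. Among 5 microglia markers 2 were lower with minocycline in each tissue, among 5 endothelial markers 2 in cortex and 1 in hippocampus, and among 5 astrocyte markers 1 and 2. Among all genes 2.47% were called lower in cortex and 1.08% in hippocampus, and none was called with the number series as a term. Microglia and endothelial markers were also higher in control mice of series A, to which all SS + RSD mice belong. Summed endothelial markers ran from 159 to 253 CPM in SS + RSD + minocycline and from 231 to 299 CPM in SS + RSD cortex, and summed microglia markers from 237 to 399 and from 310.2 to 434 CPM. Their part in the lower levels of Srxn1 and Nqo1 was not tested.

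**Figure D3:**
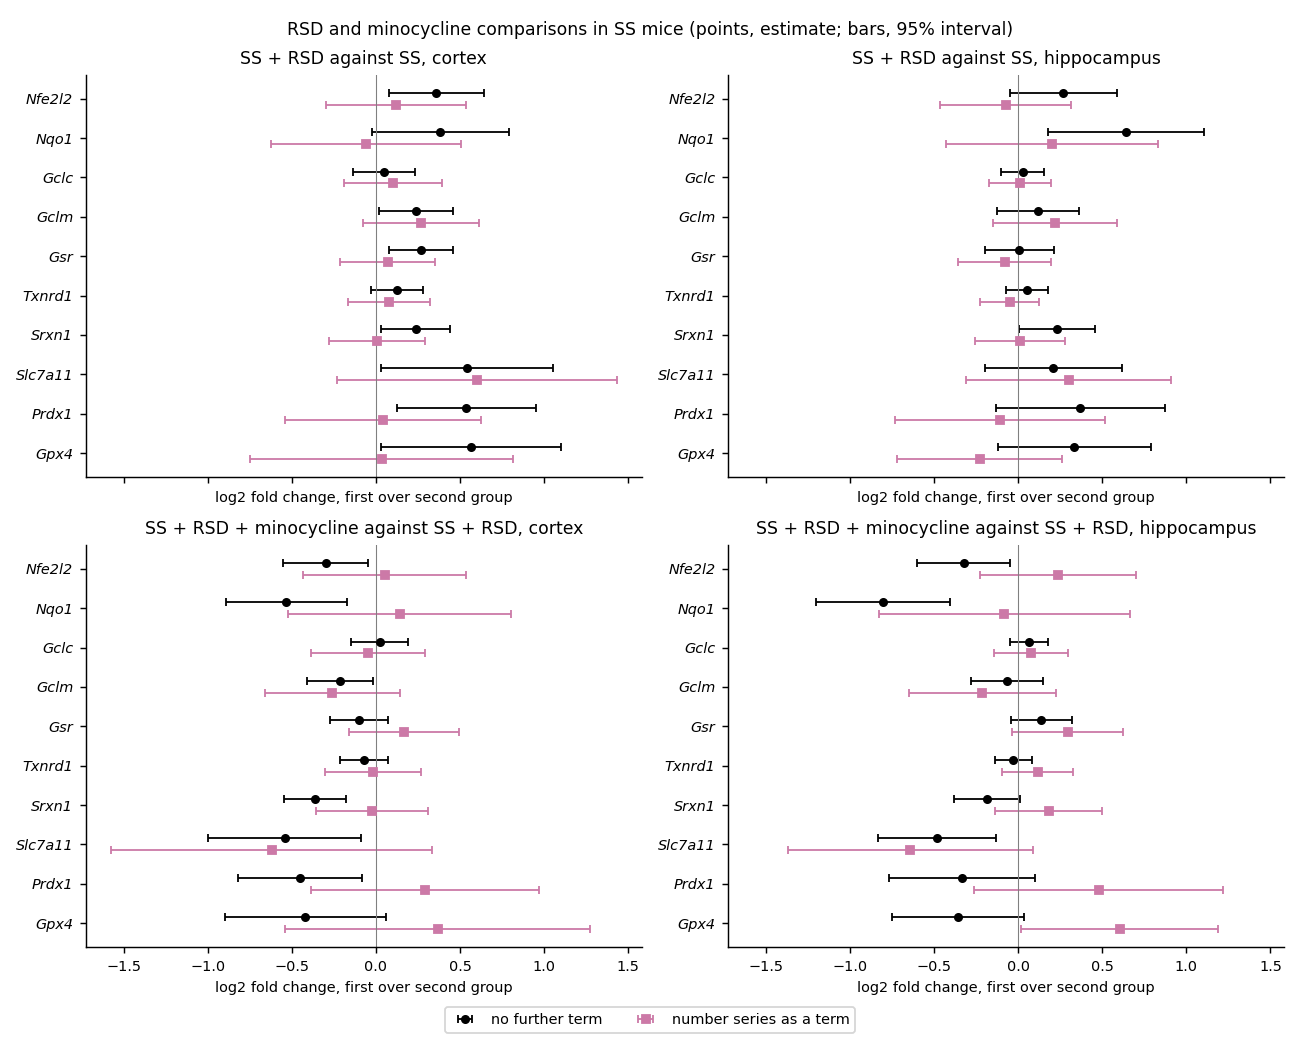
log2 fold changes (x axis) of the 10 genes (y axis) with 95% intervals for SS + RSD against SS mice (top) and SS + RSD + minocycline against SS + RSD mice (bottom) in the cortex (left) and the hippocampus (right), without a further term (black circles) and with the number series as a term (pink squares). With the term, Srxn1 in the cortex moved from -0.36 to -0.02 and Nqo1 in the hippocampus from -0.80 to -0.08 in the lower panels.

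In AA mice the matching comparison of AA + RSD + minocycline (18 mice) with AA + RSD (2 mice) called none of the 10 genes, and DESeq2 called 0. Among all genes 0% were called in the cortex (2867 at an unadjusted p under 0.05, and 22 by DESeq2) and 0.0419% in the hippocampus. Srxn1 in the cortex had 78.2, 93.7 and 111.5 CPM with minocycline, and 105 and 107 CPM in the 2 AA + RSD mice. Gclm in the cortex had the lowest estimate (-0.31, adjusted p = 0.30), with 53.99 and 45.2 CPM in AA + RSD mice and a median of 40.2 CPM with minocycline. In the hippocampus Slc7a11 (-0.43) and Txnrd1 (0.15) had an unadjusted p under 0.05. With the number series as a term 0 of the 10 genes were called as well, but 5.57% of all genes in cortex and 6.42% in hippocampus were. The median of the 10 genes then turned from -0.14 to 0.05 in cortex and from -0.11 to 0.15 in hippocampus, and Slc7a11 in the hippocampus had -0.73 (adjusted p = 0.11). Txnrd1 was called only when the library labelled hippocampus of mouse 9674 was kept (0.22 ± 0.06, adjusted p = 0.031), whose 42.7 CPM stood beside 53.6 and 53.1 CPM in the other AA + RSD mice and whose tissue markers went against its label.

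Minocycline without RSD was compared in 4 SS + minocycline and 8 or 7 SS mice, and 0 of the 10 genes and 0% of all genes were called in either tissue, by edgeR or by DESeq2. At an unadjusted p under 0.05 there were 1 of the 10 (Gsr) and 1406 of all genes in cortex, and 0 and 449 in hippocampus. The 4 mice fell into 2 pairs for several of these genes. Gpx4 in the cortex had 247 and 467 CPM in mice 9888 and 9889, of series B, and 147 and 142 CPM in mice 7108 and 7121, of series C. Prdx1 had 150.2 and 221 CPM in the first pair and 94.9 and 88.5 CPM in the second. The same pairs stood apart in the hippocampus, with Gpx4 at 295 and 271 CPM against 147 and 139 CPM, and Nfe2l2 at 20.8 and 20.9 CPM against 13.9 and 14.1 CPM. Gclc went the other way, with 48.7 and 41.8 CPM against 66.004 and 61.8 CPM in the cortex. The share of reads outside genes also differed between the pairs in the hippocampus, at 4.31% and 4.36% against 8.12% and 8.16%. In the cortex it was 9.84% and 3.85% against 10.5% and 8.57%. Its part in the levels of these 4 mice was not tested.

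Within series B alone, the 2 SS + minocycline mice differed from the SS mice in 5 of the 10 genes in cortex and 6 in hippocampus. Among all genes 40.3% and 30.1% were called, so in the cortex the share among the 10 was near that of all genes. In the cortex Gpx4 (1.15 ± 0.20), Prdx1 (0.98 ± 0.14), Srxn1 (0.40 ± 0.11) and Gsr (0.39 ± 0.11) were higher and Gclc was lower (-0.26 ± 0.09). In the hippocampus Gpx4, Prdx1, Nqo1, Nfe2l2, Srxn1 and Gsr were higher, by 0.40 to 1.00. With series B and C together 0 of the 10 and 0% of all genes were called in either tissue. With all 4 SS + minocycline mice and the share of reads outside genes as a term, 0 of the 10 and 0% of all genes were called. The median of the 10 was then 0.04 in cortex and -0.01 in hippocampus. Between SS + RSD + minocycline and SS + minocycline mice none of the 10 genes and 0% of all genes were called in either tissue, by edgeR or by DESeq2. At an unadjusted p under 0.05 there were 0 of the 10 in both tissues, and 816 and 998 of all genes. Within series B alone Srxn1 (-0.47 ± 0.12) and Prdx1 (-0.75 ± 0.23) were lower in the cortex of SS + RSD + minocycline mice, with 9.60% of all genes called, where the same 2 mice were the group compared with.

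Control mice of series A and B received neither RSD nor minocycline and show how the genes stood in each series. With genotype as a term, 6 of the 10 genes were called higher in series A in the cortex (6 against 14 mice). In the hippocampus 5 were (5 against 13 mice), and none was called lower in either tissue. Among all genes 40.3% were called in cortex, 19.1% higher and 21.1% lower in series A. In hippocampus 40.8% were called, 22.5% higher and 18.3% lower.

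Gpx4 in the cortex had 224, 276 and 303 CPM (lowest, median and highest) in series A and 157, 174 and 252 CPM in series B, with 5 of 6 mice of series A above every mouse of series B (0.61 ± 0.10, adjusted p = 0.00027). In the hippocampus it had 222 to 288 CPM in the 5 mice of series A and 136, 158 and 232 CPM in series B (0.69 ± 0.11, adjusted p = 0.00019). Srxn1 in the hippocampus had 78.2, 93.8 and 98.0 CPM in series A and 67.7, 74.4 and 78.4 CPM in series B, with 4 of 5 above every mouse of series B (0.43 ± 0.05, adjusted p = 7.3e-05). In the cortex it had 0.28 ± 0.06 (adjusted p = 0.0015).

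Prdx1 had 0.52 ± 0.10 in cortex and 0.61 ± 0.14 in hippocampus, Nqo1 0.39 ± 0.13 and 0.46 ± 0.17, and Nfe2l2 0.33 ± 0.08 and 0.38 ± 0.11, all called in both tissues. In the hippocampus the call of Nqo1 held in 1 of 5 alternatives, by DESeq2 (adjusted p = 0.046), and was lost in the others, with adjusted p up to 0.24. Gsr was called in the cortex (0.16 ± 0.05). Gclc, Txnrd1, Slc7a11 and Gclm were not called in either tissue. Gclc had intervals of -0.15 to 0.01 and -0.06 to 0.11, and Txnrd1 -0.07 to 0.09 and -0.01 to 0.19. In the hippocampus all 5 mice of series A had less Gclm (30.8 to 38.9 CPM) than any of the 13 of series B (39.9 to 52.5 CPM), and the test gave -0.18 ± 0.07 (adjusted p = 0.053). How many of all genes separated the series in this way in the hippocampus was not counted, and 18.3% were called lower in series A. In 4 of 5 alternatives Gclm was called lower in series A there (RLE size factors, no filter on low counts, DESeq2 and the share of reads outside genes as a term), with estimates of -0.36 to -0.21.

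The share of reads outside annotated genes moved with the series, and its medians in cortex were 4.94% (series A) and 9.69% (series B), and in hippocampus 5.05% and 8.29%. With this share as a term, 0 of the 10 genes were called in cortex and 3 in hippocampus (Srxn1 and Gpx4 higher, Gclm lower), against 0% and 8.84% of all genes. Without this term, markers of microglia were higher in series A for 4 of 5 genes in each tissue, those of endothelial cells for 3 and 4 of 5, and those of astrocytes for 3 of 5. Among all genes 19.1% were called higher in cortex and 22.5% in hippocampus. The part of these cells was not tested.

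**Figure D4:**
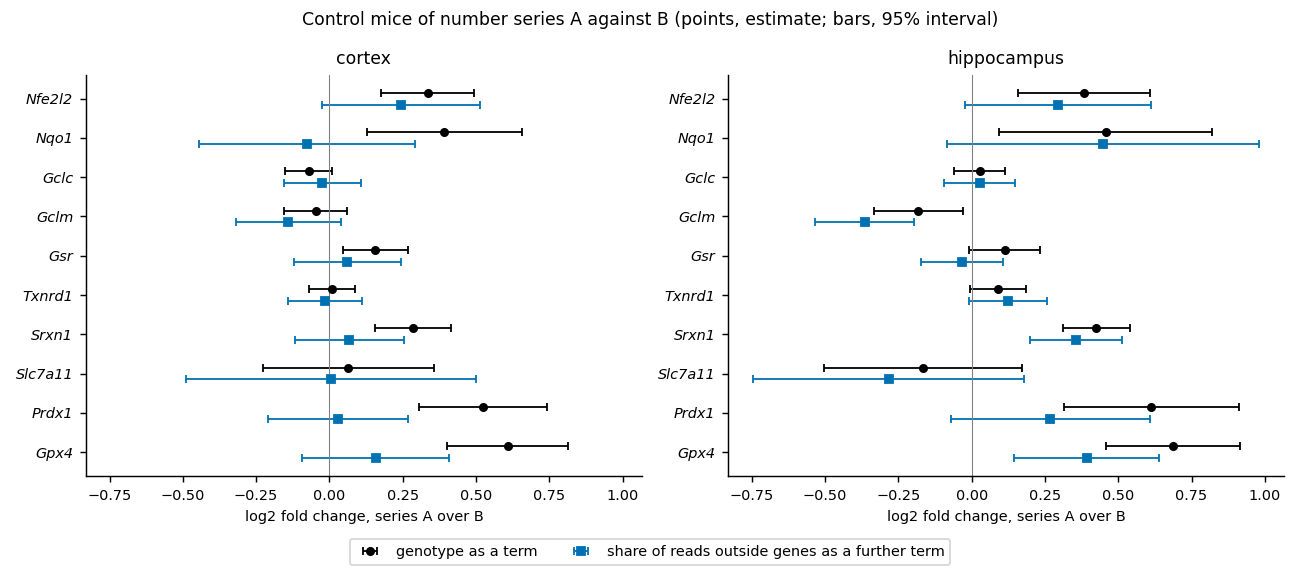
log2 fold changes (x axis) of the 10 genes (y axis) in control mice of number series A over B with 95% intervals, in the cortex and the hippocampus, with genotype as a term (black circles) and after adding the share of reads outside genes (blue squares). Gpx4 and Prdx1 have the largest differences, 0.61 and 0.52 in the cortex, and Gclc and Txnrd1 lie near 0.

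The 10 genes did not vary as a single block over the libraries. Among their 45 pairs, Spearman's correlation of log2 CPM ran from -0.63 (Gclc and Prdx1) to 0.87 (Prdx1 and Gpx4) over 65 cortex libraries, with a median of 0.10, and from -0.74 (Gclc and Gpx4) to 0.85 (Prdx1 and Gpx4) over 63 hippocampus libraries, with a median of -0.0024. These libraries share groups and number series. Within series B, with group means removed, Prdx1 and Gpx4 still had the highest value of the 45 pairs in each tissue (0.83 over 43 cortex and 0.78 over 42 hippocampus libraries), and the lowest were -0.53 (Txnrd1 and Gpx4) and -0.605 (Gclc and Prdx1). Libraries with more of the peroxidase Gpx4 thus tended to have more of the peroxiredoxin Prdx1.

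In the same libraries, and again with group means removed, the share of reads outside annotated genes had a Spearman correlation of -0.69 with Gpx4 in cortex and -0.73 in hippocampus. It had -0.67 and -0.62 with Prdx1, 0.35 and 0.41 with Gclc, and 0.28 and 0.38 with Txnrd1. The values for Slc7a11 were 0.04 and 0.12.

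**Figure D5:**
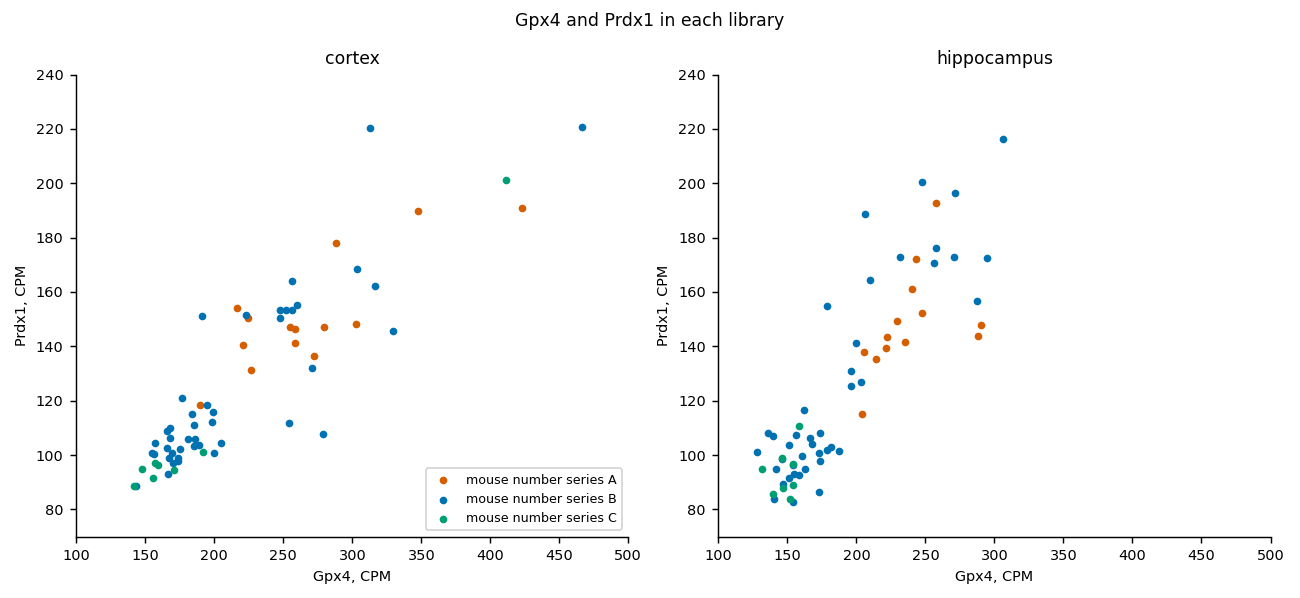
CPM of Gpx4 (x axis) and of Prdx1 (y axis) in each library of the cortex and the hippocampus, with 1 point per mouse, coloured by number series. Libraries with more Gpx4 tended to have more Prdx1 (Spearman's correlation 0.87 and 0.85 over all points), and the axes do not start at 0.

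Over all 65 cortex and 63 hippocampus libraries, the genes whose pattern was most like that of Nfe2l2 were not among the 10. Here group means were not removed and the number series were mixed, so differences between groups and series enter this ranking. Over 13123 genes whose mean log2 CPM reached 1, ranked by the lower of the Spearman correlations in cortex and hippocampus, F11r (0.71 and 0.73), Ifngr1 (0.71 and 0.70) and Msn (0.70 and 0.72) came first. F11r encodes a junctional adhesion molecule, Ifngr1 a subunit of the interferon gamma receptor and Msn moesin, which links actin to the membrane. Of the 9 targets, Gpx4 (0.46 and 0.61), Nqo1 (0.46 and 0.61) and Prdx1 (0.45 and 0.55) were nearest, at ranks 727, 772 and 871. Gclc (-0.09 and -0.39) and Txnrd1 (-0.05 and -0.42) were negative in both tissues over all libraries. Within series B, with group means removed, Gclc had 0.087 in cortex and -0.245 in hippocampus, and Txnrd1 -0.0044 and -0.316.

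A list of 48 further genes of the pathway was tested in every comparison. In SS + RSD against SS mice 0 were called in either tissue, against 2.57% of all genes in cortex and 3.11% in hippocampus. Their median log2 fold change was 0.32 in cortex and 0.22 in hippocampus against 0.08 and 0.06 over all genes. In SS + RSD + minocycline against SS + RSD mice 6.38% of all genes were called higher and 2.47% lower in the cortex. Of the 48, 0 were higher and 2 were lower there, and the number lower was near the share of all genes. The 2 were G6pdx (-0.36 ± 0.11, adjusted p = 0.033), the first enzyme of the pentose phosphate pathway and a source of NADPH, and Nfe2l1 (-0.24 ± 0.06, adjusted p = 0.016), which encodes a relative of NRF2. With the number series as a term neither was called, nor any other gene, and in control mice both were higher in series A than in series B (0.36 ± 0.08 and 0.17 ± 0.04 in the cortex). None of the 48 was called in the hippocampus, against 5.96% of all genes. Maff, a small MAF that can pair with NRF2, was higher in SS + RSD + minocycline than in AA + RSD + minocycline mice in the cortex (0.73 ± 0.15, adjusted p = 0.0067) and in the hippocampus (0.79 ± 0.18, adjusted p = 0.0080), and was the 1 gene of the 48 called in a genotype comparison. Among all genes 0.599% were called there in the cortex and 2.73% in the hippocampus. Neither SS against AA mice (0.206% of all genes in cortex and 0.158% in hippocampus) nor any comparison of RSD or minocycline in AA mice (0% and 0.0419% in each) called any of the 48.

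Between the tissues 16 of the 48 were higher and 13 lower in the hippocampus, against 32.8% and 28.6% of all genes, a share near that of all genes. Of the 10 glutathione genes 7 were higher and 2 lower, and the largest differences among the 48 included those of Mgst1 (0.78 ± 0.08), Gss (0.64 ± 0.04) and Gsta4 (0.39 ± 0.05), a microsomal glutathione transferase, glutathione synthetase and a transferase of lipid aldehydes. Ephx1, the microsomal epoxide hydrolase, was higher (0.45 ± 0.06) and Blvra, a biliverdin reductase, was lower (-0.42 ± 0.05). Of the 10 regulators 1 was higher and 5 were lower. Between the number series, 33 of the 48 were higher in series A and 4 lower in cortex, and 37 and 4 in hippocampus. Among all genes 19.1% were higher and 21.1% lower in cortex, and 22.5% and 18.3% in hippocampus. The largest differences in the cortex were those of Ftl1, the ferritin light chain (0.83 ± 0.23, and 0.97 ± 0.25 in the hippocampus), Cbr3 (0.67 ± 0.14 and 0.75 ± 0.14), a carbonyl reductase, and Gstm5 (0.63 ± 0.12 and 0.73 ± 0.12), a glutathione transferase. In the hippocampus Fth1, the ferritin heavy chain (0.84 ± 0.13), and Gpx1 (0.76 ± 0.15) stood between Ftl1 and Cbr3, and Mgst1 (0.54 ± 0.14) and Bach2 (-0.57 ± 0.13), a repressor at the same response elements, were among the 5 largest in the cortex. Medians over the 48 were 0.32 in cortex and 0.45 in hippocampus, against -0.02 and -0.01 over all genes.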

How the data were processed

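RNA of cortex and hippocampus was sequenced as single reads from directional poly(A) libraries and, per the study's methods, aligned to GRCm39 and counted per gene with STAR. The deposited files hold these counts, with no normalization by the authors, as a table per tissue. The strand setting and the annotation release are not given in the sources used here. Of 135 samples, 134 had a group from the labels and 1, whose labels name different tissues, was not analysed. The tables held 3 further columns of values that match no sample and were not used, and 4 lines that name no gene, which were kept out of library sizes. The share of reads outside annotated genes was 3.69% to 13.9% in the cortex and 3.98% to 24.0% in the hippocampus.

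Counts were tested with the quasi-likelihood test of edgeR 4.0.16 in R 4.3.3 (TMM scaling, genes kept by filterByExpr at a minimum count of 10 and a minimum total of 15), with Benjamini-Hochberg adjustment over all genes tested and a threshold of 0.05. Genotype comparisons came from a model of all groups, RSD and minocycline comparisons from a model per genotype, the number series from control mice with genotype as a term, and tissues from 18 control mice with the mouse as a block. The block was used because both libraries come from the same animal, and deviations of a mouse in the tissues correlated at 0.404 to 0.879 over 13124 genes. Intervals are 95% intervals of the log2 fold change. DESeq2 1.42.0 was an alternative. Comparisons share control samples and are not independent. Scripts were tested on simulated data. The 10 genes, the pathway and marker lists and the named genes (the 10, up to 5 called pathway genes per comparison by size, and the 3 genes most like Nfe2l2) were chosen with earlier results of these data known. Replicates are separate mice. Counting error is smallest in the deepest libraries (12869149 to 107713193 reads on genes).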

Additional observations from a re-analysis of the deposited data

Results flagged for a closer look

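In groups of 4 to 10 mice, a mouse was looked for whose level stood apart from the others by Dixon's criterion. Among 60 sets of a gene, a tissue and a group 6 had one, or 10%, where chance gives about 1 in 20 in a single set. The sets share mice and correlated genes and are not independent, and whether 6 exceeds chance was not tested. Mouse 9621 (SS + RSD) had 96.0 CPM of Slc7a11 in the cortex, with the next mouse at 44.4 CPM, and 75.2 CPM in the hippocampus, with the next at 40.2 CPM. Mouse 9615 (SS + RSD) had 11.9 CPM of Nqo1 in the hippocampus, with the next at 5.92 CPM. Mouse 5353 (SS) had 178 CPM of Prdx1 in the cortex, with the next at 136 CPM. Mouse 5349 (SS) had 22.999 CPM of Nfe2l2 in the hippocampus, with the next at 16.8 CPM. Mouse 9889 (SS + minocycline) had 26.9 CPM of Gsr in the cortex, with the next at 24.2 CPM.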

How the results depend on the processing

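The number of the 10 genes called stayed within 1.5 times the value given in 204 of 218 results with another setting and in 73 of 80 that left out a mouse. Most comparisons called 0 of the 10 genes to begin with, so these numbers say little about how steady a call was. For SS + RSD against SS in the cortex it was 1 with only the groups compared. For SS + RSD + minocycline against SS + RSD it was 2 by DESeq2 in the cortex and 0 with the number series or the share of reads outside genes as a term in each tissue, and leaving out a mouse gave 0 to 1 in the cortex and 0 to 2 in the hippocampus. For SS + minocycline against SS within series B it was 5 in the cortex and 6 in the hippocampus, and for SS + RSD + minocycline against SS + minocycline 2 in the cortex. For AA + RSD + minocycline against AA + RSD in the hippocampus it was 1 with the library of mouse 9674. For series A against B it was 0 in the cortex and 3 in the hippocampus with the share of reads outside genes as a term, where Nqo1 in the cortex turned to -0.0777. Between the tissues it was 2 with SS mice only, 4 with series A only and 5 without pairing the tissues by the replicate block. Leaving out mouse 9810, an alternative chosen after seeing the data, kept the number of the 10 genes called within 1.5 times in the hippocampus comparisons and between the tissues. The cause was not tested, beyond the smaller number of mice in the settings that leave mice out.

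Counts over all genes moved more often, by over 1.5 times in 104 of 298. For SS + RSD against SS they were 511 in the cortex and 643 in the hippocampus, and 2 and 0 without a filter on low counts, 2098 and 1507 by DESeq2, and 0 and 0 with a term for the series. For SS + RSD + minocycline against SS + RSD they were 1762 and 1234, and 1147 and 263 without the filter, 2705 and 2337 by DESeq2, and 0 and 0 with the series. Genes with few reads, here Nqo1, are limited by depth.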

Other observations

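The single AA + minocycline mouse, 10639, entered no comparison. In its cortex Slc7a11 was at 64.5 CPM, Nfe2l2 at 13.5, Nqo1 at 3.50, Gpx4 at 159 and Srxn1 at 77.6 CPM. In its hippocampus they were at 37.7, 12.1, 2.86, 154 and 62.7 CPM in the same order.

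The library that is identical under an SS + minocycline and an AA + RSD + minocycline label had 257 CPM of Prdx1 and 5.66 CPM of Nqo1 in the cortex. In the hippocampus it had 178 and 10.5 CPM. Each of these values but that of Prdx1 in the hippocampus lay above those of the 4 SS + minocycline mice used.

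In mouse 9621 (SS + RSD), whose Slc7a11 stood apart in both tissues, Gclm was also the highest of its group, at 64.7 CPM in the cortex and 58.4 CPM in the hippocampus.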
